A study of Mus musculus with 32 samples.

Results

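The regulators of coagulation and fibrinolysis described here are 9 genes, Thbd, Procr, Tfpi, Tfpi2, F3, Serpine2, Plat, Plau and Plaur. They are 9 of the 23284 genes counted in each of a pair of mouse RNA-seq tables. The genes were selected on their known roles, with earlier results of these data in view, among them the very low Thbd level in the KO culture line. The KO against WT culture values are therefore given as a description, and nothing is read from them or from how many passed a threshold.

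RNA was sequenced from brachiocephalic arteries with atherosclerotic lesions of 4 Oct4 -/- (KO) and 4 wild type (WT) mice, all C57BL/6 and fed a Western diet for 18 weeks. It was also sequenced from primary aortic smooth muscle cells, with 1 KO and 1 WT line. Each line was given POVPC, an oxidized phospholipid, or its vehicle, under hypoxia (1% oxygen) or normoxia, with 3 libraries in each of the 8 groups. The labels give the lesions as a mixture of cell types and the cells as smooth muscle, and name no Cre driver, further allele or POVPC dose. Because there is 1 line per genotype, genotype and line cannot be told apart in culture, and its p-values measure the spread between triplicates that may be technical. Lesion libraries held 6526099 to 11137414 counts and culture libraries 8063121 to 30231799. Pou5f1, which encodes Oct4, had at most 3 counts in any library, so it cannot check the genotype labels.

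Clotting on a vessel wall starts when tissue factor, encoded by F3, is exposed to blood and binds factor VII. Tissue factor pathway inhibitor, encoded by Tfpi, blocks that complex. Thrombomodulin (Thbd) and the endothelial protein C receptor (Procr) turn thrombin towards activating protein C, an anticoagulant protease. Clots and matrix are broken down by plasmin, which tissue-type (Plat) and urokinase-type (Plau) plasminogen activators release from plasminogen. The urokinase receptor (Plaur) holds urokinase on the cell surface, and protease nexin-1 (Serpine2) inhibits thrombin, urokinase and plasmin.

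The starts of the genes are shown because several members moved with oxygen or POVPC. RefSeq promoter entries (GRCm38.p6) were found for 6 of the 9 genes, Procr, F3, Tfpi, Tfpi2, Plaur and Serpine2. Of each, the 250 bases before the start were searched on both strands for the core of the hypoxia response element (ACGTG or GCGTG), the AP-1 site TGANTCA, which reads the same on both strands, and the octamer ATGCAAAT that Oct4 binds. The 4 windows below are written 5′ to 3′ on the gene's strand, with AP-1 matches in capitals. They show Plaur, Procr and F3, which hold AP-1 matches, and Serpine2, the member with the largest excess in the KO line, which holds none of the motifs. All 4 genes, like the other tested members, passed the test for POVPC in WT cells under normoxia, so a match does not set them apart. They lie at chr7:24462233-24462482 (plus strand) for Plaur, chr2:155750967-155751216 (plus) for Procr, chr3:121723287-121723536 (plus) for F3 and chr1:79858666-79858915 (minus) for Serpine2.
Plaur: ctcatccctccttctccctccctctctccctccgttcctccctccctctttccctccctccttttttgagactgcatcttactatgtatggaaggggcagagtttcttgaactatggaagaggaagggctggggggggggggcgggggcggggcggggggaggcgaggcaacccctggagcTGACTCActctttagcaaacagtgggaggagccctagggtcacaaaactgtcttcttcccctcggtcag
Procr: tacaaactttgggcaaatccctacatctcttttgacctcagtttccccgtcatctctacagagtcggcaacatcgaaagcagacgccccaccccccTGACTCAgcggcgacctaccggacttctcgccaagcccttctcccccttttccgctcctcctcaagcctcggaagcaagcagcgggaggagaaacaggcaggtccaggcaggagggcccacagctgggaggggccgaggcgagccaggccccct
F3: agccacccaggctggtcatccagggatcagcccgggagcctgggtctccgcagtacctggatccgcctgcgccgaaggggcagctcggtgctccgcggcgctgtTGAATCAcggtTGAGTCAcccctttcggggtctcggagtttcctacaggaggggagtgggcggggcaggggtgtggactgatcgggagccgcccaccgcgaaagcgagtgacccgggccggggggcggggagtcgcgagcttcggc
Serpine2: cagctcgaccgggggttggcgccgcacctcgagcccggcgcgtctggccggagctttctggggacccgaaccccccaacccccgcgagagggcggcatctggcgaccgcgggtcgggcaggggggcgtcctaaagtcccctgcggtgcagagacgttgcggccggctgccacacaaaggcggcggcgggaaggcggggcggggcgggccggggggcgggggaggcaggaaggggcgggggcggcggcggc
The Plaur match ends 63 bases before the start and the Procr match 148 bases before it. F3 has 2 matches, which end 140 and 129 bases before the start. One of the Tfpi2 entries also held an AP-1 match beside both hypoxia cores, and these were the only hypoxia cores in the windows of the 6 genes. No octamer was found in any of them. Over the 32841 promoters of the table, 6.75% held the AP-1 site, 38.6% at least 1 hypoxia core and 1.6% the octamer. A match is a description of these letters and says nothing about what binds there.

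Thbd, an intronless gene at chr2:148230207-148233924 (mm9, minus strand), encodes thrombomodulin, which binds thrombin on the vessel wall. Levels are read counts scaled to library size, as CPM, and were 1.44, 1.62 and 1.67 in KO vehicle normoxia, against 967, 1003 and 991 CPM in WT vehicle normoxia. Under POVPC and normoxia they were 1.08, 1.78 and 1.37 CPM in KO cells, against 350.0, 327 and 374 CPM in WT cells. No KO library came near a WT library.

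Under vehicle and hypoxia, Thbd was at 0.169, 0.191 and 0.51 CPM in KO cells, against 651, 600.1 and 631 CPM in WT cells. Under POVPC and hypoxia it was at 0.332, 0.542 and 0.533 CPM in KO cells, against 592, 524 and 606 CPM in WT cells. As log2 KO against WT, the differences were -9.28 ± 0.15 (vehicle, normoxia), -7.96 ± 0.14 (POVPC, normoxia), -11.32 ± 0.18 (vehicle, hypoxia) and -10.25 ± 0.16 (POVPC, hypoxia), each ± SE with n = 3 libraries against 3. The fitted levels were thus 249- to 2549-fold lower in the KO line. Its level rests on 4, 4 and 5 reads per library under vehicle and hypoxia.

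Within the WT line, POVPC and oxygen both moved Thbd. Under normoxia POVPC lowered it by 2.82-fold (log2 -1.49 ± 0.10, FDR 1.33e-12), while under hypoxia the POVPC difference was -0.13 ± 0.10 (FDR 0.386). Hypoxia lowered it under vehicle (-0.65 ± 0.10, FDR 1.03e-06) and raised it under POVPC (0.71 ± 0.10, FDR 3.05e-07), so the sign of the oxygen effect turned with POVPC. The order of WT levels was vehicle normoxia, vehicle hypoxia, POVPC hypoxia and POVPC normoxia, and the libraries of the middle pair overlapped. In the KO line hypoxia lowered the small remainder, by -2.69 ± 0.26 under vehicle (FDR 2.68e-10) and by -1.58 ± 0.20 under POVPC (FDR 8.90e-08).

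Thrombomodulin is best known from endothelium, so endothelial markers were read beside it. The summed level of 8 of them (Pecam1, Cdh5, Tie1, Tek, Kdr, Emcn, Nos3 and Cldn5) was 1.18 to 4.77 CPM over all culture libraries, with Cdh5, Tie1, Cldn5 and Emcn at or below 0.0453 CPM on average in every group. Thbd in the WT line was far above that sum. The smooth muscle markers summed to 44.4 to 182 CPM in KO libraries and 37.1 to 368 CPM in WT libraries. Among them Acta2 (smooth muscle actin) averaged 27.4 to 58.3 CPM in KO groups and 18.8 to 263 CPM in WT groups, while Myh11, the defining myosin of contractile smooth muscle, averaged at most 5.15 CPM in any group. This marker was low, and the cells are called smooth muscle here by their label. Adventitial fibroblast markers, 8 of 8 measured, moved with oxygen, with sums of 255 to 979 CPM in hypoxic libraries and 3775 to 4873 CPM in normoxic libraries. Mesothelial markers (4 of 4 measured) summed to 10.6 to 69.4 CPM in KO libraries and 5.75 to 71.7 CPM in WT libraries. In WT cells under normoxia they were at 61.5 to 71.7 CPM with POVPC and 13.6 to 16.3 CPM with vehicle, and in KO cells under normoxia at 54.9 to 56.2 CPM with POVPC and 60.2 to 69.4 CPM with vehicle. The part of these lists in the member values was not tested.

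One library stood apart in its lymphocyte markers. WT POVPC hypoxia 2, the shallowest of the culture, had a summed level of 18.4 CPM over 7 of them, against at most 1.31 CPM in every other group. Alignments to several places, per assigned count, were 9.24 in this library, 8.07 in KO vehicle hypoxia 3 and 5.79 in WT POVPC hypoxia 1. These are the 3 shallowest culture libraries, all hypoxic. In the other culture libraries the value was 0.743 to 3.88. Its part in the oxygen differences was not tested. Without WT POVPC hypoxia 2, POVPC under hypoxia in WT cells gave Plat at -0.74 (FDR 4.65e-08), Plaur at -0.82 (FDR 2.34e-05) and F3 at -0.79 (FDR 0.0143). The Plau call was lost (-0.55, FDR 0.102). With hypoxia under POVPC in WT cells, Plaur was at 2.00 (FDR 7.63e-14) and Thbd at 0.80 (FDR 1.44e-07). The Procr line difference in the POVPC response under hypoxia lost its call (0.46, FDR 0.0884). The line differences called in the hypoxia response under POVPC kept theirs.

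Procr (chr2:155576953-155581214, plus strand), the receptor that presents protein C to thrombomodulin, moved the opposite way with oxygen in the lines. Under vehicle it was at 12.7, 14.01 and 9.17 CPM in hypoxic KO cells, against 19.1, 16.8 and 16.6 CPM in normoxic KO cells, a fall of log2 -0.52 ± 0.11 (FDR 0.000164). In the WT line it was at 47.8, 52.9 and 48.3 CPM under hypoxia, against 25.8, 22.2 and 23.4 CPM under normoxia, a 2.09-fold rise (log2 1.06 ± 0.10, FDR 1.84e-10). Neither pair of groups overlapped. The KO minus WT difference in the hypoxia response was -1.58 ± 0.15 (FDR 1.12e-09).

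Under POVPC, Procr rose by 0.42 ± 0.10 with hypoxia in the WT line (FDR 0.000787), and the KO difference was -0.21 ± 0.11 (FDR 0.0781), so that KO minus WT was -0.63 ± 0.15 (FDR 0.00156). POVPC raised it in WT cells under normoxia, to 31.5, 30.2 and 32.1 CPM (log2 0.39 ± 0.10, FDR 0.0036), a call lost on scaling by library size alone (0.28, FDR 0.0886). The KO minus WT difference in the POVPC response was -0.46 ± 0.15 under normoxia (FDR 0.0295) and 0.50 ± 0.15 under hypoxia (FDR 0.0338). Both of these calls were lost when single libraries were left out, the first down to -0.39 without KO vehicle normoxia 1 (FDR 0.0861) and the second down to 0.34 without KO vehicle hypoxia 3 (FDR 0.137). Without the 3 shallowest culture libraries together, 2 of them WT POVPC hypoxia, which leaves 1 library in that group, the second was 0.29 (FDR 0.435). Every WT group of Procr lay above every KO group.

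**Figure D1:**
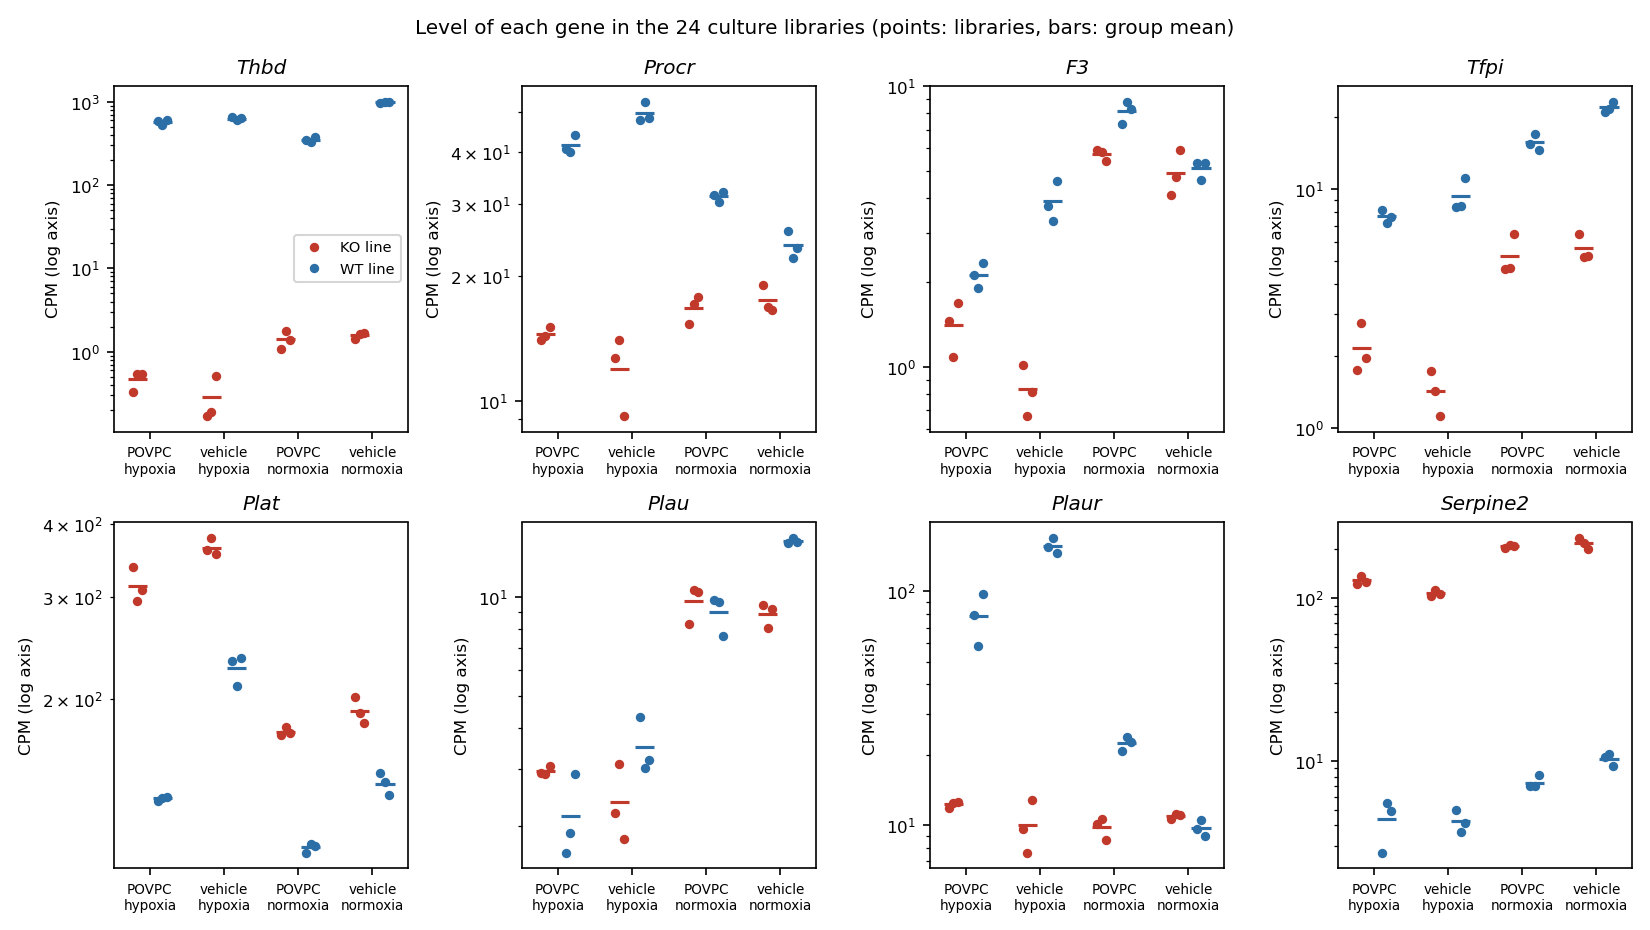
Level of 8 genes in the 24 culture libraries, in CPM on a log axis of its own in each panel. Points are libraries and short bars group means, with the KO line left of the WT line in each condition; Thbd is at most 1.78 CPM in KO libraries and at least 327 CPM in WT libraries, Serpine2 shows the reverse order, and Plaur is high in WT cells under hypoxia.

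F3 (chr3:121426455-121437970, plus strand), the start of the extrinsic clotting cascade, was low in culture and fell with hypoxia in 3 of the 4 comparisons. Under vehicle it was at 1.01, 0.667 and 0.815 CPM in hypoxic KO cells, against 4.10, 4.73 and 5.93 CPM in normoxic KO cells (log2 -2.55 ± 0.23, FDR 8.00e-11). In WT cells it was at 3.75, 3.29 and 4.60 CPM under hypoxia, against 5.33, 4.64 and 5.31 CPM under normoxia (-0.38 ± 0.17, FDR 0.0565). Neither pair overlapped. The WT value passed the threshold with the replicate number as a block (-0.39, FDR 0.0461) and on library size alone (-0.55, FDR 0.0148). It also passed with the 5 CPM filter (-0.41, FDR 0.0354), halved counts (-0.35, FDR 0.0487) and without WT vehicle hypoxia 3 (-0.52, FDR 0.0236). In 10 of the 15 alternative fits it did not pass.

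The hypoxia response of F3 under vehicle was lower in the KO line by -2.17 ± 0.29 (FDR 7.19e-07). Under POVPC it fell in both lines, by -2.02 ± 0.20 in KO cells (FDR 3.52e-10) and -1.90 ± 0.20 in WT cells (FDR 1.68e-09). The difference between the lines was then -0.12, with a 95% interval of -0.67 to 0.43.

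POVPC turned F3 in opposite directions in WT cells, up under normoxia (7.35, 8.80 and 8.27 CPM, log2 0.68 ± 0.17, FDR 0.00263) and down under hypoxia (2.12, 1.91 and 2.34 CPM, log2 -0.84 ± 0.21, FDR 0.00366). Without the 3 shallowest culture libraries the difference under hypoxia was -0.74 (FDR 0.105), where 1 WT POVPC hypoxia library was left and is assumed to vary like the other groups. In KO cells the POVPC differences were 0.22 ± 0.17 under normoxia (FDR 0.742) and 0.74 ± 0.26 under hypoxia (FDR 0.112). The line difference in the POVPC response under hypoxia was 1.59 ± 0.33 (FDR 0.00226). KO against WT, F3 was at -0.04 ± 0.17 (vehicle, normoxia), -0.50 ± 0.17 (POVPC, normoxia), -2.21 ± 0.23 (vehicle, hypoxia) and -0.63 ± 0.23 (POVPC, hypoxia).

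Tfpi (chr2:84273017-84316932, minus strand), which shuts off the tissue factor complex, fell with hypoxia in all 4 comparisons. Under vehicle it averaged 1.43 ± 0.304 CPM in hypoxic KO cells and 5.64 ± 0.706 CPM in normoxic KO cells (SD, n = 3 each; log2 -1.92 ± 0.20, FDR 2.23e-09). It averaged 9.33 ± 1.56 CPM in hypoxic WT cells and 21.9 ± 1.15 CPM in normoxic WT cells (log2 -1.23 ± 0.15, FDR 1.81e-08). No libraries overlapped between these groups.

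Under POVPC the Tfpi falls with hypoxia were -1.28 ± 0.18 in the KO line (FDR 3.70e-07) and -1.02 ± 0.16 in the WT line (FDR 1.95e-06). The KO minus WT difference of -0.69 ± 0.25 under vehicle (FDR 0.032) was lost in several fits, among them those without WT vehicle hypoxia 3 (-0.54, FDR 0.0988) and on library size alone (-0.57, FDR 0.112). POVPC lowered Tfpi in WT cells under normoxia (15.7 ± 1.27 CPM, log2 -0.48 ± 0.14, FDR 0.0111), a call lost without WT POVPC normoxia 3 (-0.43, FDR 0.0614) and without WT vehicle normoxia 3 (-0.44, FDR 0.0546). With POVPC under hypoxia the Tfpi values were 0.53 ± 0.23 in KO cells (FDR 0.206) and -0.28 ± 0.16 in WT cells (FDR 0.234). KO against WT, Tfpi differed by log2 -1.59 to -2.65 over the 4 conditions.

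Tfpi2 (chr6:3912595-3918354, minus strand), a matrix-bound inhibitor of plasmin and other proteases, was near the limit of detection in culture. It had 1 read in KO POVPC normoxia 2, 4 reads in KO POVPC hypoxia 2 and none in the other culture libraries, where a count of 0 allows up to 0.0992 to 0.372 CPM by depth. It did not pass the filter on low counts in either table and was not tested.

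Plaur (chr7:25247519-25260892, plus strand), the urokinase receptor, had under vehicle the largest difference between the lines in the response to hypoxia of the 8 tested members. Under vehicle it was at 9.62, 7.62 and 12.8 CPM in hypoxic KO cells, against 10.6, 11.1 and 10.99 CPM in normoxic KO cells (log2 -0.17 ± 0.16, FDR 0.363). In the WT line it was at 154, 169 and 146 CPM under hypoxia, against 9.65, 10.6 and 8.96 CPM under normoxia, a 16.1-fold rise (log2 4.01 ± 0.15, FDR 3.29e-18). The KO groups overlapped and the WT groups were far apart. The KO minus WT difference was -4.17 ± 0.21 (FDR 3.20e-14).

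Under POVPC the pattern was smaller. Plaur was at 11.9, 12.4 and 12.5 CPM in hypoxic KO cells, against 10.1, 10.6 and 8.63 CPM in normoxic KO cells (log2 0.32 ± 0.15, FDR 0.0563). In the WT line it was at 79.1, 58.6 and 97.3 CPM under hypoxia, against 20.6, 23.9 and 22.8 CPM under normoxia (log2 1.82 ± 0.14, FDR 1.09e-11). The difference between the lines was -1.49 ± 0.20 (FDR 2.10e-06).

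Plaur in WT cells rose with POVPC under normoxia (log2 1.21 ± 0.14, FDR 2.71e-07) and fell with it under hypoxia (-0.98 ± 0.13, FDR 4.42e-06). In KO cells the POVPC differences were -0.16 ± 0.15 (FDR 0.779) and 0.33 ± 0.16 (FDR 0.256). KO minus WT was -1.36 ± 0.21 under normoxia (FDR 2.52e-05) and 1.32 ± 0.20 under hypoxia (FDR 0.000115). Under normoxia and vehicle KO against WT was 0.17 ± 0.15.

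Plau (chr14:21655884-21662610, plus strand), urokinase itself, went down with hypoxia while its receptor in WT cells went up. Under vehicle it averaged 2.37 ± 0.651 CPM in hypoxic KO cells and 8.90 ± 0.776 CPM in normoxic KO cells (log2 -1.86 ± 0.19, FDR 1.31e-09). In WT cells it averaged 3.503 ± 0.702 CPM under hypoxia and 14.8 ± 0.279 CPM under normoxia (log2 -2.06 ± 0.17, FDR 1.08e-11). Under POVPC the falls were -1.71 ± 0.18 in KO cells (FDR 1.22e-09) and -1.98 ± 0.20 in WT cells (FDR 8.44e-10).

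The hypoxia response of Plau was not shown to differ between the lines, with KO minus WT at 0.20 under vehicle (95% interval -0.31 to 0.71) and 0.26 under POVPC (-0.27 to 0.79). POVPC lowered Plau in WT cells under normoxia (-0.71 ± 0.16, FDR 0.000953), and KO minus WT was then 0.84 ± 0.23 (FDR 0.0092). In KO cells the POVPC values of Plau were 0.13 ± 0.16 under normoxia (FDR 0.832) and 0.27 ± 0.21 under hypoxia (FDR 0.535). Under hypoxia the WT value was -0.62 ± 0.21 (FDR 0.0366), a call lost without any of WT vehicle hypoxia 1 (-0.44, FDR 0.206), WT POVPC hypoxia 1 (-0.45, FDR 0.193) or WT POVPC hypoxia 2 (-0.55, FDR 0.102). Without the 3 shallowest culture libraries, which leaves 1 library of WT POVPC hypoxia, it was -0.29 (FDR 0.566).

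Plat (chr8:23868216-23893320, plus strand), the tissue-type activator, rose with hypoxia in all 4 comparisons. Under vehicle it was at 360.2, 378 and 355 CPM in hypoxic KO cells, against 202, 189 and 182 CPM in normoxic KO cells (log2 0.93 ± 0.065, FDR 3.20e-13). In WT cells it was at 232, 211 and 235 CPM under hypoxia, against 149, 144 and 137 CPM under normoxia (log2 0.66 ± 0.065, FDR 3.80e-10). No libraries overlapped in either line.

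Under POVPC the rises of Plat with hypoxia were 0.83 ± 0.065 in KO cells (FDR 2.83e-12) and 0.28 ± 0.065 in WT cells (FDR 0.000449), the second lost on library size alone (0.19, FDR 0.103). KO minus WT was 0.55 ± 0.092 under POVPC (FDR 2.53e-05) and 0.27 ± 0.091 under vehicle (FDR 0.0187), and the vehicle value was 0.18 with an FDR of 0.282 when no filter was applied. That call was also lost without any of 5 single libraries, with the lowest value, 0.22, without WT vehicle hypoxia 2 (FDR 0.0638). POVPC lowered Plat in WT cells, by -0.36 ± 0.065 under normoxia (FDR 6.35e-05) and by -0.74 ± 0.065 under hypoxia (FDR 1.72e-09). In KO cells the POVPC values were -0.12 ± 0.065 (FDR 0.675) and -0.22 ± 0.064 (FDR 0.0515), and KO minus WT under hypoxia was 0.53 ± 0.091 (FDR 0.000324).

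Serpine2 (chr1:79790896-79855240, minus strand), protease nexin-1, had the opposite line pattern to Thbd. It was at 234, 219.5 and 201 CPM in KO vehicle normoxia, against 10.5, 11.001 and 9.25 CPM in WT vehicle normoxia. Under vehicle and hypoxia it was at 102, 113 and 106 CPM in KO cells, against 4.97, 3.62 and 4.13 CPM in WT cells. All KO libraries were above all WT libraries. The log2 KO against WT was 4.41 ± 0.12 (vehicle, normoxia), 4.83 ± 0.13 (POVPC, normoxia), 4.64 ± 0.13 (vehicle, hypoxia) and 4.89 ± 0.14 (POVPC, hypoxia).

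Hypoxia lowered Serpine2 in both lines, and no difference between the lines was called. Under vehicle the falls were -1.02 ± 0.10 in KO cells (FDR 1.24e-09) and -1.26 ± 0.13 in WT cells (FDR 1.30e-09). Under POVPC they were -0.69 ± 0.10 in KO cells (FDR 9.27e-07) and -0.76 ± 0.15 in WT cells (FDR 5.11e-05). The 95% intervals of KO minus WT were -0.09 to 0.56 under vehicle and -0.28 to 0.42 under POVPC. POVPC lowered it in WT cells under normoxia (-0.49 ± 0.12, FDR 0.00309). In KO cells the POVPC values were -0.07 ± 0.10 under normoxia (FDR 0.858) and 0.26 ± 0.10 under hypoxia (FDR 0.166).

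**Figure D2:**
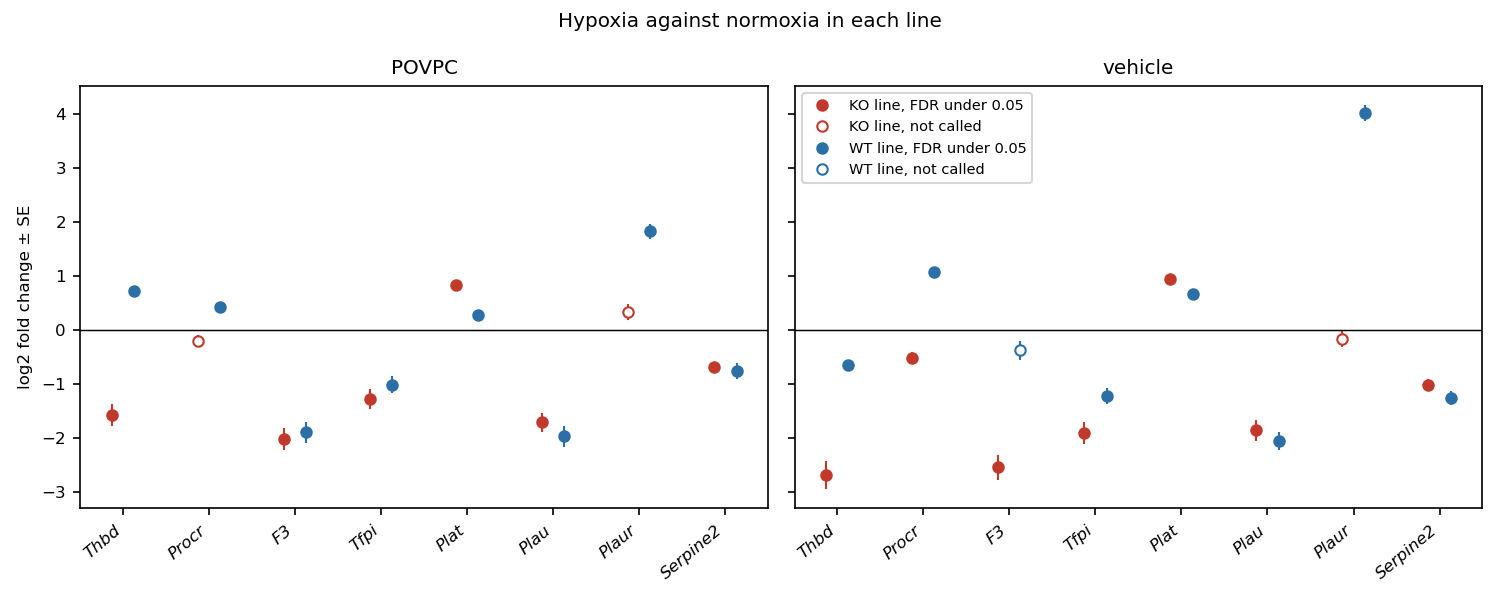
Log2 fold change of hypoxia over normoxia for 8 genes, ± SE, with POVPC on the left, vehicle on the right, and in each gene the KO line left of the WT line. Filled points passed an FDR of 0.05; Plau, Tfpi and Serpine2 fell in both lines, Plat rose in both, and Plaur rose by 4.01 (vehicle) and 1.82 (POVPC) in WT cells, a difference between the lines of -4.17 and -1.49.

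Counted over the 8 tested members, the hypoxia comparisons called 1 higher and 6 lower in KO vehicle cells, where 32.6% of all tested genes were higher and 32.8% lower. In KO POVPC cells 1 was higher and 5 lower, against 34.5% and 33.9% of all genes. In WT vehicle cells 3 were higher and 4 lower, against 32.8% and 35.3%, and in WT POVPC cells 4 were higher and 4 lower, against 31.8% and 34.3%. Hypoxia moved most genes of the table, so these counts are not a result about the members. The median log2 changes of the members were -1.44, -0.99, -0.52 and -0.24 in the same order, against 0.015, 0.026, -0.032 and -0.024 over all tested genes.

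POVPC called no member in the KO line in either oxygen state. Under normoxia 0.0069% of all genes were higher and 0.0345% lower, no member and 7.42% of all genes had an unadjusted p under 0.05, and DESeq2 called no member and 16 genes in all. Under hypoxia 1.97% of all genes were higher and 2.09% lower, 7 of the 8 members and 17.9% of all genes had an unadjusted p under 0.05, and DESeq2 called 2 members and 1012 genes in all. In the WT line under normoxia 3 members were higher (Procr, F3 and Plaur) and 5 lower, against 13.1% and 13.8% of all genes. Under hypoxia none was higher and 4 were lower (F3, Plat, Plau and Plaur), against 8.22% and 12.7%.

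**Figure D3:**
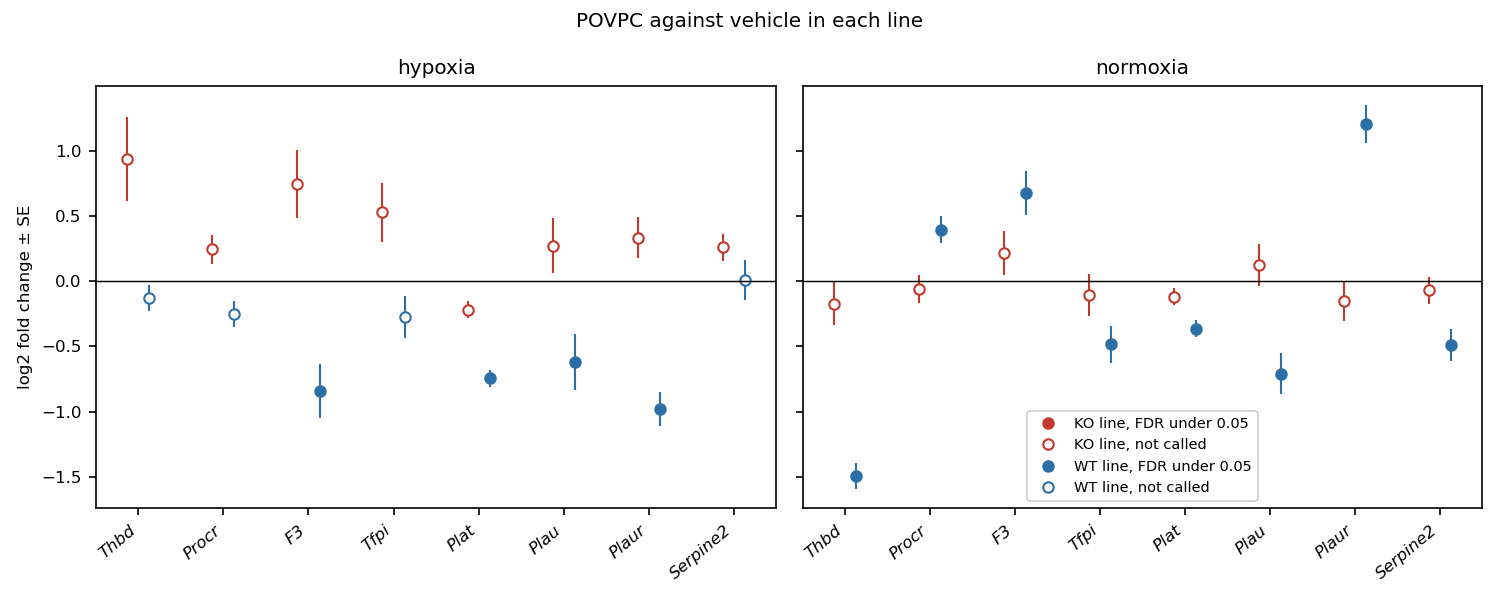
Log2 fold change of POVPC over vehicle for 8 genes, ± SE, with hypoxia on the left, normoxia on the right, and in each gene the KO line left of the WT line. No filled point lies in the KO line. In WT cells all 8 genes passed under normoxia, where 13.1% of all genes were higher and 13.8% lower. Under hypoxia 4 passed, against 8.22% and 12.7%. Filled in 1 line and open in the other is not a test of the difference. The tested difference between the lines was called under normoxia for Thbd, Procr, Plau and Plaur. Under hypoxia it was called for Procr, F3, Plat and Plaur.

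The test of the KO minus WT difference called 2 members higher and 2 lower in the POVPC response under normoxia, against 8.17% and 8% of all genes. Under hypoxia it called 4 higher and 0 lower, against 5.89% and 3.48%. In the hypoxia response it called 1 higher and 5 lower under vehicle, against 19.2% and 19.9%, and 1 higher and 3 lower under POVPC, against 15.7% and 14.4%. Differences between the lines were already in view when the genes were selected, so no member's line difference in response is independent of that choice.

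For KO against WT in culture, as a description at the same FDR, 2 members were higher and 4 lower under vehicle and normoxia, where 29.8% of all genes were higher and 30.8% lower. Under POVPC and normoxia the numbers were 2 and 5 (29.5% and 30.7%), under vehicle and hypoxia 2 and 6 (29.5% and 30.4%), and under POVPC and hypoxia 2 and 5 (30% and 27.6%). Plat and Serpine2 were the higher members in each. These counts are a description, since the choice of genes used this contrast.

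Between genes, levels were compared per kilobase of exon. In KO vehicle normoxia Serpine2 was highest at 106 CPM per kb, followed by Plat at 75.5 and Procr at 11.6 CPM per kb, and Thbd was at 0.424. In KO vehicle hypoxia the order turned, with Plat at 144 and Serpine2 at 52.2 CPM per kb. In WT vehicle normoxia Thbd was highest at 265 CPM per kb, followed by Plat at 56.6 and Procr at 15.8 CPM per kb, and Serpine2 was at 4.996. In WT vehicle hypoxia Thbd (169 CPM per kb) was followed by Plaur (112) and Plat (89.3).

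The genes most like each member over the 24 culture libraries were found by Pearson's r of log2(CPM + 0.5) among 12338 genes. The libraries fall into 8 groups, so r describes the pattern of the groups. The 3 nearest to Thbd were Rims2 (r = 0.989), 3830403N18Rik (0.986) and Xlr (0.986). For Procr they were Gbp2 (0.971), Arl4d (0.959) and Pold2 (0.953), for F3 Map3k14 (0.986), Gpr56 (0.968) and Rbpj (0.967), and for Tfpi Stc1 (0.981), Nov (0.974) and Klhl23 (0.974). For Plat they were Soat1 (0.973), Rasgrp3 (0.962) and D730040F13Rik (0.956), and for Plau Tspan2 (0.972), Vars2 (0.970) and Fuz (0.967). Those nearest to Serpine2 were Pdzrn3 (0.992), Hoxa7 (0.992) and Mira (0.990). For Plaur they were Kng1 (0.989), which encodes kininogen, Rasgef1b (0.981) and Kng2 (0.977), a second kininogen gene whose reads may be split with Kng1.

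A wider list of 43 coagulation and fibrinolysis genes, none of them a member, gave 42 genes in the tables and 25 tested in culture. With hypoxia, 7 rose and 9 fell in KO vehicle cells, where 32.6% and 32.8% of all genes did. The numbers were 8 and 9 in KO POVPC cells (34.5% and 33.9% of all genes), 9 and 14 in WT vehicle cells (32.8% and 35.3%), and 8 and 10 in WT POVPC cells (31.8% and 34.3%).

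Named genes of the wider list moved with oxygen. Gas6, a vitamin K-dependent ligand, fell in all 4 comparisons, under vehicle by -4.93 ± 0.12 in KO cells (FDR 9.23e-24) and by -3.82 ± 0.098 in WT cells (FDR 1.75e-23). F2rl1, the receptor PAR2 that tissue factor complexes activate, rose in KO cells by 2.66 ± 0.21 under vehicle (FDR 6.71e-12) and by 2.94 ± 0.20 under POVPC (FDR 1.62e-13). It differed between the lines by 2.12 ± 0.32 under vehicle (FDR 4.74e-06). Kng1 had 0 reads in WT vehicle normoxia and 26.1 ± 1.83 CPM in WT vehicle hypoxia, and at most 0.0926 CPM on average in any KO group.

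With POVPC, 0 of the 25 genes were called in KO cells under normoxia by edgeR. There 2 of them, and 7.42% of all genes, had an unadjusted p under 0.05. Under hypoxia 1 rose in KO cells (1.97% of all genes rose). In WT cells 3 rose and 5 fell under normoxia (13.1% and 13.8% of all genes), and 2 rose and 5 fell under hypoxia (8.22% and 12.7%). Pros1, the cofactor protein S of activated protein C, rose in WT cells under normoxia (297 ± 25.2 CPM with POVPC and 142 ± 0.380 CPM with vehicle, log2 1.06 ± 0.093, FDR 3.19e-10). Its response differed between the lines by -1.18 ± 0.13 (FDR 8.93e-08). The line difference in POVPC response was called for 3 genes up and 3 down under normoxia (8.17% and 8% of all genes) and 2 up and 1 down under hypoxia (5.89% and 3.48%). That in hypoxia response was called for 4 up and 10 down under vehicle (19.2% and 19.9%) and 2 up and 5 down under POVPC (15.7% and 14.4%). KO against WT, as a description, 4 were higher and 13 lower under vehicle and normoxia (29.8% and 30.8%), 4 and 11 under POVPC and normoxia (29.5% and 30.7%), 4 and 13 under vehicle and hypoxia (29.5% and 30.4%), and 3 and 6 under POVPC and hypoxia (30% and 27.6%).

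In the lesions none of the 8 tested members was called by edgeR, where 0% of the 14993 genes tested were higher and 0% lower, and the smallest FDR of any gene was 0.0575. Unadjusted p was under 0.05 for 3 members and for 2216 of all genes (14.8%), and DESeq2 called 2 members and 489 genes in all. Plau, urokinase, was at 71.7, 131, 151 and 183 CPM in KO lesions, against 53.9, 79.2, 81.5 and 58.4 CPM in WT lesions (log2 0.97 ± 0.27, FDR 0.186, and 0.0186 by DESeq2). The lowest KO animal lay within the WT range. Procr was at 29.2, 36.7, 39.4 and 36.3 CPM in KO lesions, against 19.4, 26.95, 26.4 and 27.1 CPM in WT lesions (log2 0.50 ± 0.13, FDR 0.172, and 0.0485 by DESeq2), with no overlap.

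Thbd was at 155, 141, 161 and 159 CPM in KO lesions, against 136, 151, 158 and 128 CPM in WT lesions. The groups overlapped, and the 95% interval of the log2 difference was -0.08 to 0.29 (0.10 ± 0.094, FDR 0.638). The culture differences in Thbd were in view when the genes were selected, so they are not set against that interval. The tables were fitted apart, and the difference between them was not tested. In bulk tissue, fewer cells of a type and less RNA per cell cannot be told apart.

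Serpine2 was at 191, 169.5, 304 and 271 CPM in KO lesions, against 159, 289.6, 367 and 195 CPM in WT lesions, and the groups overlapped (log2 -0.11 ± 0.29, 95% interval -0.67 to 0.45). Tfpi averaged 19.9 ± 2.22 CPM in KO lesions and 15.98 ± 1.64 CPM in WT lesions (0.32 ± 0.12, FDR 0.266). Plaur averaged 23.5 ± 5.30 CPM in KO lesions and 18.5 ± 2.94 CPM in WT lesions (0.34 ± 0.18, FDR 0.403). The differences of F3 (-0.03 ± 0.15, FDR 0.943) and Plat (0.04 ± 0.098, FDR 0.862) were smaller than the spread between animals. Tfpi2 was at 0.912 to 1.25 CPM in KO lesions and 0.313 to 0.534 CPM in WT lesions, on 38 and 17 counts in all, and was not tested. Per kilobase, Serpine2 was the highest member in both groups, at 114 CPM per kb in KO lesions and 123 CPM per kb in WT lesions.

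Markers of some cells of the artery leaned with the lesion groups, although edgeR called no gene of the lesions. All 8 macrophage markers measured were higher in KO lesions, with a summed level of 3659 to 8543 CPM in KO animals and 2195 to 3272 CPM in WT animals and a median log2 difference of 0.81. All 8 endothelial markers were also higher (1084 to 1272 CPM in KO animals, 844 to 1032 CPM in WT animals, median 0.40). None of the 8 smooth muscle markers was higher (3854 to 5749 CPM in KO animals, 5545 to 8410 CPM in WT animals, median -0.43). All 8 adventitial fibroblast markers were higher too (3692 to 4643 CPM in KO animals, 2203 to 4132 CPM in WT animals, median 0.27). The smooth muscle and adventitial sums overlapped between the groups. The remaining lists were mixed, with 2 of 7 platelet, 4 of 7 lymphocyte, 1 of 2 erythroid and 1 of 3 mesothelial markers higher in KO lesions. No macrophage, endothelial or smooth muscle marker was at 0. Their part in the Plau, Procr and Tfpi values was not tested. Over the members the median log2 difference was 0.21, against -0.0086 over all tested genes. Of the wider list 26 genes were tested and none was called by edgeR. An unadjusted p under 0.05 was found for 6 of them and for 14.8% of all genes.

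**Figure D4:**
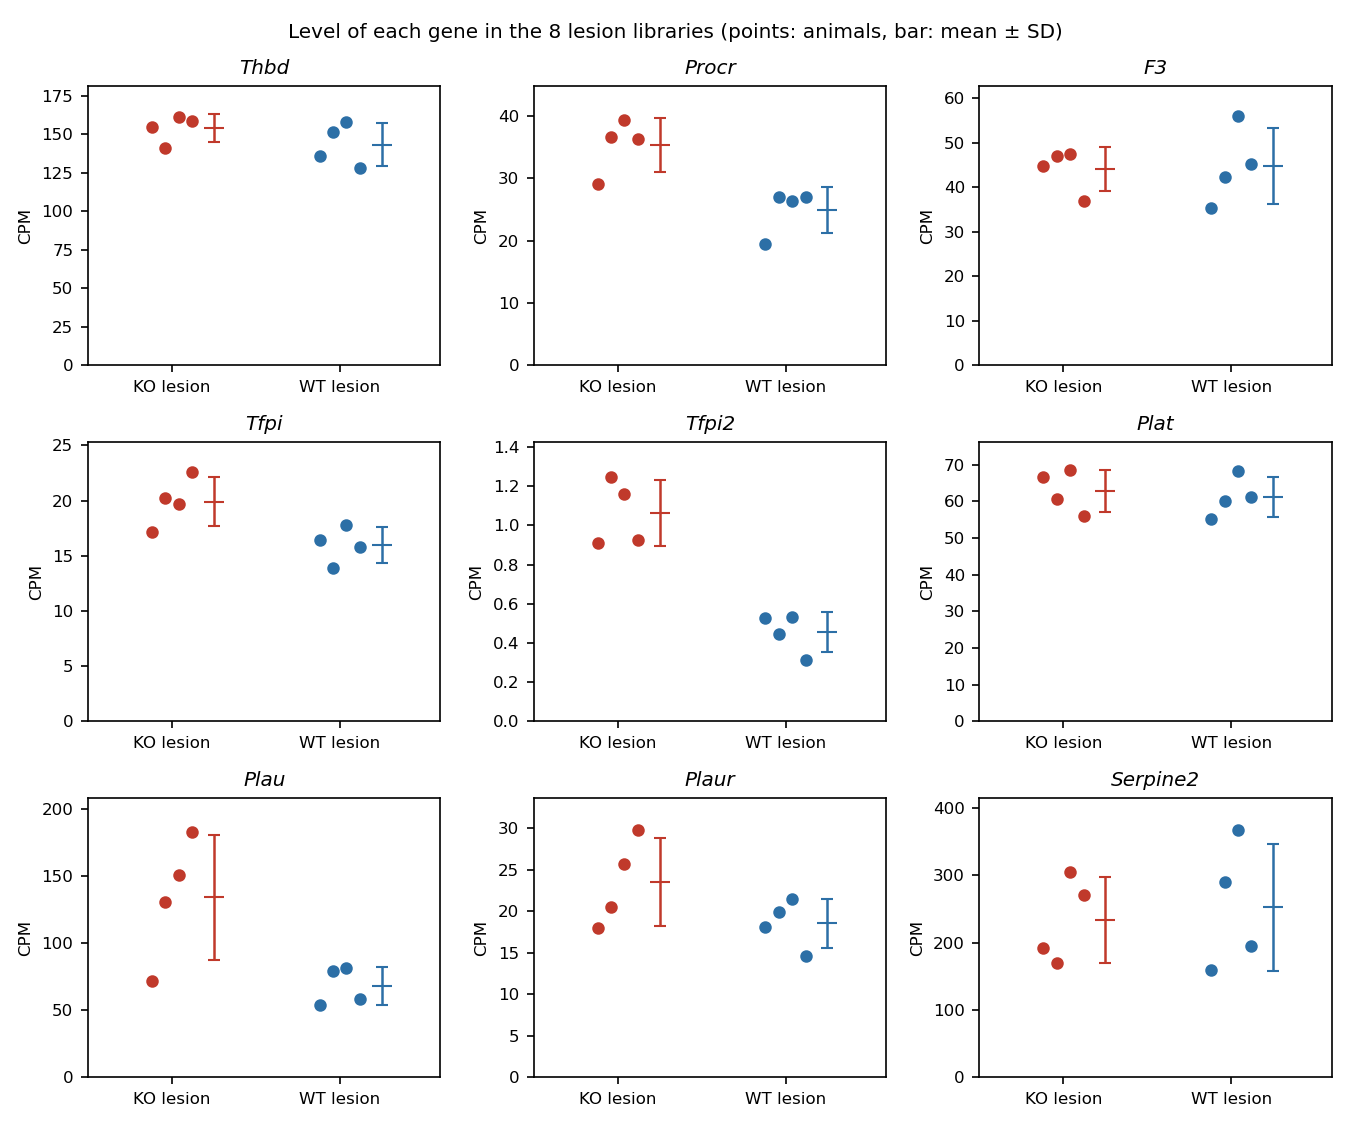
Level of the 9 genes in the 8 lesion libraries, in CPM on a linear axis from 0 in each panel, with KO left of WT. Points are animals and bars the mean ± SD (n = 4); Procr does not overlap between the groups, Plau averages 134 CPM in KO and 68.2 CPM in WT lesions with overlap, and Thbd and Serpine2 overlap.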

How the data were processed

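RNA was measured in 8 lesion and 24 culture libraries. The values are raw read counts per gene, deposited as a lesion table and a culture table and made with featureCounts 1.4.4 on the mm9 gene annotation, per the file headers. CASAVA, STAR and DESeq2 are named in the submitters' processing notes. Lesion counts are fragments, culture counts were made without the paired option, so they are single reads, and neither used strand, per the file headers. No column of an unmapped sample was found.

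Each table was fitted apart with edgeR 4.0.16 (R 4.3.3, quasi-likelihood test, TMM scaling, robust) after a filter at a minimum count of 10 and total of 15, with the 24 culture libraries in one model of 8 groups. The false discovery rate (FDR) is Benjamini-Hochberg over all genes tested, with a threshold of 0.05, over 17 comparisons. CPM are the deposited counts divided by library size after TMM scaling. Changes are log2, ± SE from the test statistic. The script was tested on simulated data.

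The members and lists were chosen with earlier results of these data known. All 9 members are eligible in every comparison, and Tfpi2, below the filter, has levels and no test. Of the wider list, genes were eligible by a fixed rule of up to 4 per direction with the largest called change at a mean of at least 1 CPM, and examples were taken from these. The replicate numbers were not used to pair samples in the fit reported. Alternatives were library-size scaling, RLE factors, DESeq2 1.42.0, other filters, a replicate block, halved culture counts, other sets of libraries and leaving out each library. Intervals and floors cover counting error or spread between libraries, not line. One further result is not reported here.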

Additional observations from a re-analysis of the deposited data

Results flagged for a closer look

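In WT lesions, Procr in animal 1 was at 19.4 CPM, apart from the other 3 WT animals at 26.4 to 27.1 CPM by a gap past the critical share of the range for 4 samples (Dixon). Chance flags about 1 in 20 groups. The rule was applied to each of the 9 members in both lesion groups, and this was its only flag.

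The remaining results were flagged because the response differed between the KO and WT lines by a test of the difference itself. For POVPC under normoxia KO minus WT was 1.32 for Thbd, -0.46 for Procr, 0.84 for Plau and -1.36 for Plaur (log2). For POVPC under hypoxia it was 0.50 for Procr, 1.59 for F3, 0.53 for Plat and 1.32 for Plaur. For hypoxia under vehicle it was -2.04 for Thbd, -1.58 for Procr, -2.17 for F3, -0.69 for Tfpi, 0.27 for Plat and -4.17 for Plaur. For hypoxia under POVPC it was -2.29 for Thbd, -0.63 for Procr, 0.55 for Plat and -1.49 for Plaur. With 1 line per genotype, genotype and line cannot be told apart in these values. The genes were also selected with differences between the lines in view. The Thbd values for hypoxia rest on few reads in hypoxic KO cells, 4 to 5 per library under vehicle and 8 to 12 under POVPC. Under vehicle the value ranged from -2.50 to -1.75 over the alternative fits. As given above, some fits lost the calls of Procr for POVPC, and of Tfpi and Plat for hypoxia under vehicle.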

How the results depend on the processing

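Most values kept their direction and side of the threshold. Of 136, these were 135 with a replicate block, 128 with DESeq2, 133 with RLE factors and 124 on library size alone. Over the fits that left out 1 library, 964 values kept them, 33 lost a call, 8 gained a call and 19 changed sign. The block lost no call and gained F3 with hypoxia in WT vehicle cells (-0.39, FDR 0.0461). Libraries of different groups were correlated after each gene's group mean was subtracted. These correlations did not settle whether the same number means a shared source. For the same number they were -0.42 to 0.55 in culture and -0.67 to 0.12 in lesions. For different numbers they were -0.52 to 0.54 in culture and -0.40 to 0.59 in lesions. In lesions DESeq2 called 2 members, Procr and Plau, and 489 genes in all. For POVPC in KO hypoxia, edgeR called no member, and 1.97% of all genes were higher and 2.09% lower. The member called there varied with the setting. It was Plat with RLE factors, the 5 CPM filter and halved counts, and Serpine2 with the groups fitted alone. DESeq2 called Plat and Serpine2, and 1012 genes in all. Leaving out the 3 shallowest libraries moved Plaur from 0.33 to 0.49. For POVPC in WT hypoxia, leaving them out leaves 1 WT POVPC hypoxia library that is assumed to vary like the other groups. There F3 moved from -0.84 to -0.74 and Plau from -0.62 to -0.29.

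Signs turned only for values that were not called in the fit reported. On library size alone, Plat in lesions was -0.018, Procr with POVPC in KO normoxia 0.0013 and Serpine2 with POVPC in WT hypoxia -0.0067. With no filter, Serpine2 in that comparison was -0.015 and F3 KO against WT (vehicle, normoxia) 0.00050. Without the 3 shallowest libraries, Plau KO against WT (POVPC, hypoxia) was -0.00071, and the line differences in hypoxia response under POVPC were -0.12 for Plau and -0.16 for Serpine2.

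Leaving out 1 library at a time, members called with POVPC in KO hypoxia ranged from 0 to 1. In lesions Serpine2 ranged from -0.29 to 0.12, F3 from -0.13 to 0.11 and Plat from -0.012 to 0.10. KO against WT, F3 ranged from -0.20 to 0.072 (vehicle, normoxia) and Plau from -0.00099 to 0.21 (POVPC, normoxia). With POVPC, Procr ranged from -0.11 to 0.0041 (KO normoxia) and Serpine2 from -0.18 to 0.24 (WT hypoxia). Plaur with hypoxia in KO vehicle cells ranged from -0.34 to 0.00044. The line differences in hypoxia response ranged from -0.045 to 0.38 for Plau under vehicle, and under POVPC from -0.17 to 0.25 for Serpine2 and from -0.27 to 0.032 for F3. The cause was not tested. Depth limits Thbd in KO cells and Tfpi2 in culture.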
